A study of Mus musculus with 6 samples.

Results

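The genes described here were taken by symbol as the nuclear subunits of complexes II to V of the oxidative phosphorylation (OXPHOS) chain. These are 48 of the 32285 genes counted in single-cell libraries of mouse islets. They were chosen by gene symbol, with no cutoff on measured values but with earlier results of these data known. *Sdha* to *Sdhd* stood for complex II (4 genes), *Cyc1* and symbols that begin with *Uqcr* for complex III (9 genes), symbols that begin with *Cox4* through *Cox8* for complex IV (18 genes), and symbols that begin with *Atp5* for complex V (17 genes). Islets of 6 mice, 12 to 14 weeks of age, gave 1 droplet library each, and 3 of the mice were WT and 3 were β14-3-3ζ–KO. β14-3-3ζ–KO mice carried *Ywhaz* alleles with a floxed exon 4 and the *Ins1*CreThor allele, in which Cre sits in the *Ins1* locus and acts in β cells. WT mice were littermates that carried the same Cre, and the strain label of both groups is C57/BL6. Islets were dispersed after a night of recovery in culture and dead cells were removed, so every value comes from cells that survived both steps.

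Complex II oxidizes succinate and hands the electrons to ubiquinone, complex III passes them to cytochrome c, and complex IV passes them to oxygen. Complex V, the ATP synthase, makes ATP from the proton gradient that the chain builds. In β cells, ATP from this pathway closes potassium channels and so links glucose to insulin release. The catalytic core of complex IV is encoded by mitochondrial DNA, while several of its nuclear subunits exist as paralogs used by different tissues. *Cox6a2*, *Cox7a1*, and *Cox8b*, for example, are known as the heart and skeletal muscle forms.

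Each captured mRNA molecule gave 1 unique molecular identifier (UMI) from its 3′ end, so levels are counts of molecules and needed no correction for gene length. The libraries held 74083947 to 98294915 UMIs, and 25420 of 43445 barcodes passed the filters on cells. No pair of libraries shared more than 15 barcodes. Levels are sums of UMIs over the cells of a type in a library, scaled by TMM to a common library total (CPM). β cell–like cells numbered 5618. Their clusters had all 9 fixed β cell markers, including *Ins1*, *Mafa*, and *Slc2a2*, above other deep clusters that were named or led by another hormone. Against all other kept cells, 9 markers were above in the larger β cluster and 0 in the smaller. α, δ, endothelial, macrophage, and stellate cell–like cells were also compared, and 8121 cells of low UMI counts were left unnamed. *Ywhaz*, the targeted gene, had 159, 175, and 166 CPM in the β cell–like cells of WT libraries 1 to 3 and 20.3, 21.8, and 20.8 CPM in those of KO libraries 1 to 3. The log2 fold change was −3.00 (SE 0.0708, edgeR quasi-likelihood FDR 1.34e-06). For the comparison of genotypes, KO β cell–like cells with any *Ywhaz* UMI were dropped, so that 1916 KO and 2341 WT cells remained. *Ywhaz* is then at 0 in KO sums by construction. No WT cell was dropped by this rule, and the KO cells kept were shallower than those dropped. Their medians were 27414, 21597, and 28760 UMIs in KO libraries 1 to 3, against 34123, 24839, and 34961 in the cells dropped. The part of this filter in the differences between genotypes was not tested.

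Transcripts of most members were abundant in β cell–like cells, and 42 of the 48 were detected in more than 15% of cells of either genotype and were tested. The 6 members below that limit, *Cox4i2*, *Cox6b2*, *Cox7a1*, *Cox7b2*, *Cox8b*, and *Cox8c*, are all paralogs of complex IV subunits. No member differed between β14-3-3ζ–KO and WT β cell–like cells at an FDR under 0.05 with an absolute log2 fold change over 0.1, by edgeR or by DESeq2. Of all 9641 genes tested, 0.0104% were called, which is *Ywhaz* alone. By an unadjusted p under 0.05, edgeR marked 1 member, *Uqcrh*, against 4.53% of all genes. The log2 fold change, KO over WT, was above 0 for 38 of the 42 members and for 49.9% of all genes. Its median was 0.13 over the members, with a range from −0.12 (*Atp5k*) to 0.30 (*Cox6c*), and −0.00020 over all genes tested.

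**Figure D1:**
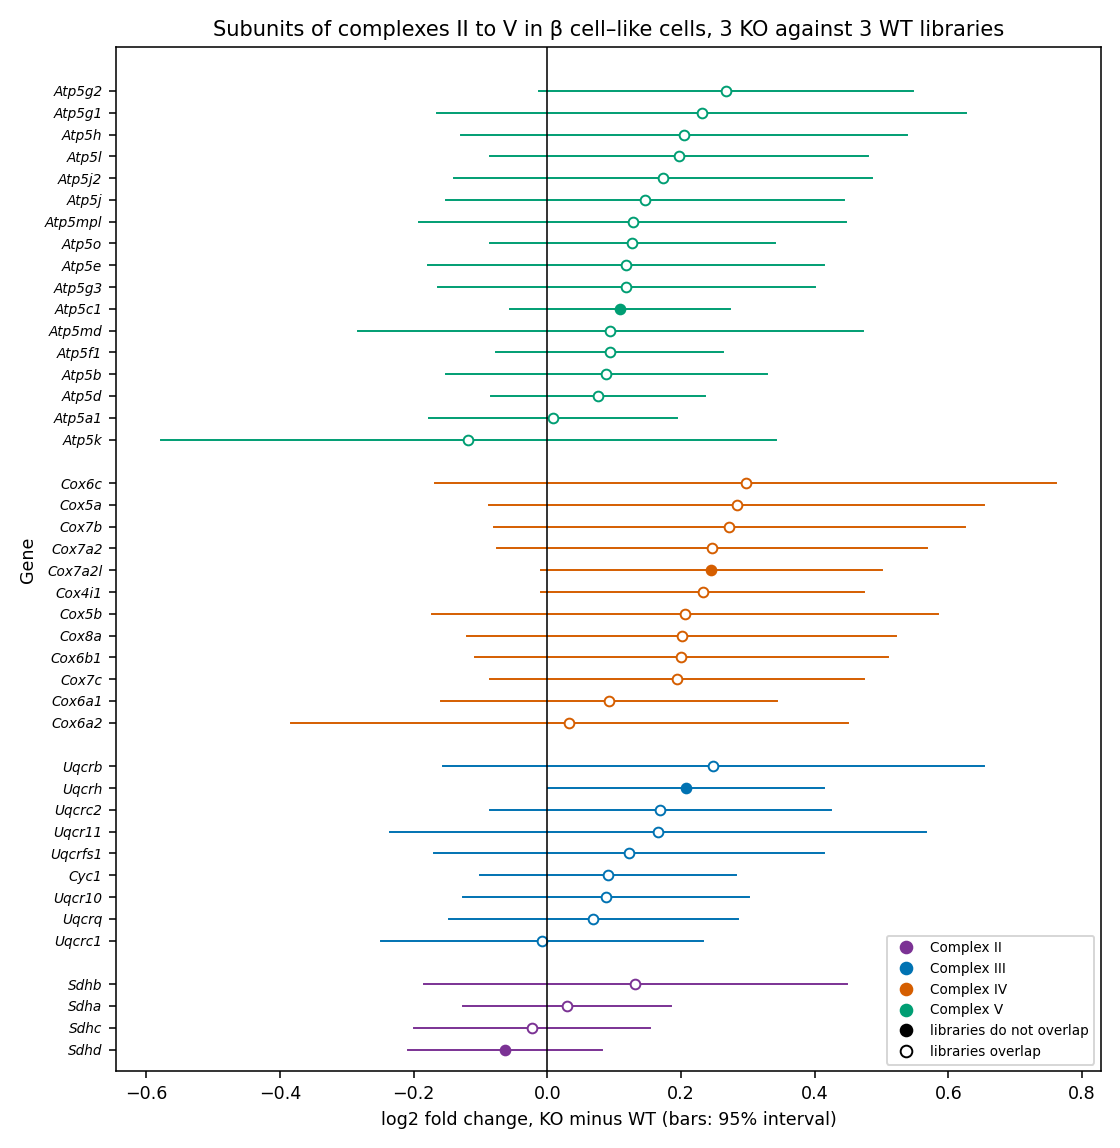
Log2 fold change, KO over WT, of each of the 42 members tested in β cell–like cells, ordered by complex, with 95% intervals as bars and filled markers where the KO and WT libraries do not overlap. Most points lie right of 0, from −0.12 for *Atp5k* to 0.30 for *Cox6c*, every interval but that of *Uqcrh* crosses 0, and no member was called.

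The summed level of the 4 complex II genes was 259.7, 277.4, and 267.7 CPM in WT and 252.6, 295.4, and 267.7 CPM in KO, and the groups overlapped. Complex III summed to 1295, 1484, and 1293 CPM in WT and to 1340, 1698, and 1409 CPM in KO. The 12 tested complex IV genes summed to 2146, 2495, and 2313 CPM in WT and to 2355, 3201, and 2547 CPM in KO. Library 2 was the highest of its genotype in each of these sums, and WT and KO libraries overlapped in each. The sums of complex V followed the same order, with 3138, 3802, and 3376 CPM in WT and 3357, 4378, and 3559 CPM in KO. Means for complex IV were 2318 ± 174 CPM in WT and 2701 ± 443 CPM in KO (SD, n = 3), and those for complex V were 3438 ± 336 and 3764 ± 541 CPM. The median log2 fold change of single genes was 0.0033 in complex II (2 of 4 genes above 0), 0.12 in complex III (8 of 9), 0.22 in complex IV (12 of 12), and 0.12 in complex V (16 of 17).

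**Figure D2:**
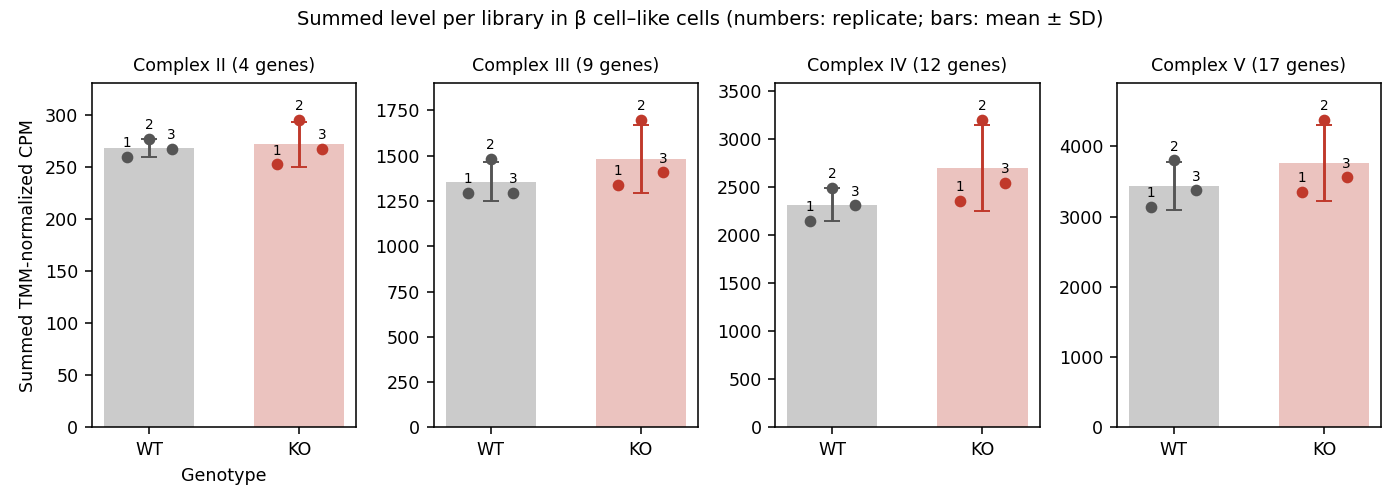
Summed TMM-normalized CPM of the tested members of each complex in β cell–like cells, 1 point per library, with the mean and SD of the 3 WT and 3 KO libraries. Complex V sums lie between 3138 and 4378 CPM and complex II sums between 252.6 and 295.4 CPM, library 2 is highest in each group, and WT and KO points overlap in all 4 complexes.

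These values moved with single libraries. Without KO library 2, 26 of the 42 members were above 0 and the median was 0.03. The median was 0.21 without WT library 2, 0.23 without KO library 1, and 0.09 without both libraries numbered 2. The β cell–like cells of libraries numbered 2 were also the shallowest of their genotype, with medians of 28210 (WT) and 21597 (KO) UMIs per cell, against 39542 and 32157 in the other WT and 27414 and 28760 in the other KO libraries. Among cells with 20000 to 40000 UMIs, which were 1221 WT and 980 KO cells, 39 members were above 0 with a median of 0.24 and none was called. The part of depth in these values was not tested.

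The same-numbered libraries of the 2 genotypes varied together, and 30 members were higher in KO in all 3 same-numbered pairs, against 18.5% of all genes, while 2 members were lower in all 3 pairs, against 16.9%. With the pair as a block in the fit, 19 members had an unadjusted p under 0.05, all of them higher in KO, against 13.8% of all genes in either direction and 8.06% with higher values in KO. None of them was called, against 0.363% of all genes, and the lowest FDR of a member was 0.0822 (*Cox6c*).

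The KO and WT libraries did not overlap for 4 members, against 11% of all genes tested. *Uqcrh* encodes the hinge protein of complex III, which helps cytochrome c to bind. It had 177, 181, and 169 CPM in WT and 188, 229, and 191 CPM in KO. All 3 KO libraries lay above the WT libraries, which holds for 5.79% of all genes. The log2 fold change was 0.21 (SE 0.0905, 95% interval 0.00056 to 0.41, edgeR p 0.0495, FDR 0.918). *Cox7a2l*, a paralog of *Cox7a2*, was counted with complex IV by its symbol alone, which does not make it a structural subunit. It had 324, 240.1, and 305 CPM in WT and 341, 343, and 347 CPM in KO. Its KO libraries were all higher than the WT libraries and lay close together, while WT library 2 was well below the other two. The log2 fold change was 0.25 (SE 0.111, edgeR FDR 0.918). *Atp5c1*, the γ subunit that turns inside the ATP synthase, had 157, 161, and 154 CPM in WT and 162, 182, and 165 CPM in KO, also without overlap, and its log2 fold change was 0.11 (SE 0.0721). *Sdhd*, a membrane anchor of complex II, had 43.4, 42.2, and 42.3 CPM in WT and 39.1, 41.5, and 41.9 CPM in KO. All 3 KO libraries were lower, as for 5.21% of all genes, and the log2 fold change was −0.06 (SE 0.0633, edgeR FDR 0.938).

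*Uqcrh* and *Sdhd*, the members with the lowest p and with KO libraries all lower, are shown with 150 bases upstream of the RefSeq start (GRCm38.p6), each on the minus strand and written 5′ to 3′. Capitals mark matches on either strand to the NRF1 motif, named after a factor that drives many respiratory chain genes, and to CCGGAAG, known for ETS factors such as GABP.
*Uqcrh*, chr4:116075071-116075220: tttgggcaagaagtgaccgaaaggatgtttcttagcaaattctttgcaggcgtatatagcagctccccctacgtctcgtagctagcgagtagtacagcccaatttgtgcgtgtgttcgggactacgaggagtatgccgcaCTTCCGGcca
*Sdhd*, chr9:50603850-50603999: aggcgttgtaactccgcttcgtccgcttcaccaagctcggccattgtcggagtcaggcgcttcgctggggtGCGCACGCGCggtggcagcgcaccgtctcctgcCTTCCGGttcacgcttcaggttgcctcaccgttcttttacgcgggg
The *Uqcrh* stretch holds an ETS match that starts 10 bases before the RefSeq start. The *Sdhd* stretch holds an NRF1 match 79 bases and an ETS match 46 bases before its RefSeq start. The bases just after that *Sdhd* start were found in no *Sdhd* transcript of GENCODE vM21, where the gene starts at chr9:50603812. Over the 250 bases upstream, the NRF1 motif was found in 7 of the 35 members in the RefSeq promoter table (20%) and in 4.23% of all 27025 genes there. The ETS letters were found in 9 members (25.7%) and in 7.83% of all genes. A TATA box, TATAAA, was found in 3 members (8.57%) and in 14.3% of all genes. The members lie on 18 chromosomes, and a match of letters is a description and no measure of binding.

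Within complex II, *Sdha*, the flavoprotein that oxidizes succinate, was the most abundant, with 91.9, 99.0, and 96.6 CPM in WT and 93.3, 102, and 98.5 CPM in KO, and the groups overlapped. *Sdhd* was the least abundant. *Sdhb*, the iron-sulfur subunit, had means of 47.7 ± 1.18 CPM in WT and 52.4 ± 11.8 CPM in KO, with KO library 2 at 65.5 CPM above all others and KO library 1 at 42.9 CPM below them.

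Within complex III, *Uqcrq*, a small subunit next to cytochrome b, was the most abundant at 442, 463, and 404 CPM in WT and 435, 507, and 432 CPM in KO. The libraries overlapped and the log2 fold change was 0.07 (SE 0.0945). *Uqcrc1*, a core protein on the matrix side, was the least abundant at 51.7, 65.4, and 53.5 CPM in WT and 53.9, 62.0, and 53.9 CPM in KO, with a log2 fold change of −0.01 (SE 0.105). *Cyc1*, the heme subunit that feeds cytochrome c, had 73.8 ± 6.30 CPM in WT and 78.6 ± 4.45 CPM in KO (SD, n = 3).

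Among complex IV genes, *Cox8a* was the most abundant. It had 359.9, 444, and 419 CPM in WT and 407, 570.4, and 429.6 CPM in KO, where KO library 2 was above all others and the groups otherwise overlapped. *Cox4i1*, the widely used form of subunit 4 that enters the complex early, had 258, 289, and 276 CPM in WT and 288, 371, and 307 CPM in KO. WT library 2 lay just above KO library 1, and the log2 fold change was 0.23 (SE 0.106, 95% interval −0.0096 to 0.47). *Cox6c* had the highest fold change of all members at 0.30 but also an SE of 0.203, with 195, 288, and 219 CPM in WT and 227, 378, and 259 CPM in KO.

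*Cox6a2* was the least abundant tested subunit of complex IV. It lies at chr7:128205435-128206387 on the minus strand (GRCm38) and overlaps *Itgad* on the other strand. It had 32.1, 47.4, and 44.1 CPM in WT and 36.6, 36.5, and 53.1 CPM in KO. The genotypes overlapped and the log2 fold change was 0.03 (SE 0.182, 95% interval −0.38 to 0.45, edgeR FDR 0.985). *Cox6a2* was detected in fewer cells than members of like level. At 41.2 CPM, it was detected in 42.3% of WT β cell–like cells, whereas *Sdhd* at 42.6 CPM was detected in 70.8% of the same cells and *Sdhb* at 47.7 CPM in 72.0%.

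In complex V, *Atp5e*, the small ε subunit of the rotor, was the most abundant at 376, 481, and 414 CPM in WT and 413, 539, and 428 CPM in KO. *Atp5o*, which joins the stator to the catalytic head, was the least abundant at 91.7, 101, and 92.1 CPM in WT and 94.5, 117, and 100.0 CPM in KO. Libraries of both genotypes overlapped for both genes. The catalytic subunits *Atp5a1* and *Atp5b* had log2 fold changes of 0.0082 (SE 0.0809) and 0.09 (SE 0.105). *Atp5k*, a small membrane subunit, was among the 4 members below 0, with 97.5, 187, and 136 CPM in WT and 119, 138, and 129 CPM in KO, and its WT libraries spread over a wider range than its KO libraries.

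Paralogs were next compared as shares of the UMIs of their own family, which does not depend on the scaling between libraries. *Cox6a2* made up 19.1%, 22.0%, and 23.9% of *Cox6a* UMIs in WT β cell–like cells and 20.5%, 17.2%, and 25.4% in KO β cell–like cells, and *Cox6a1* made up the rest. The means of 21.7% ± 2.42 and 21.0% ± 4.15 (SD, n = 3) differed by −0.648 percentage points (2-sided exact permutation p = 0.9, adjusted p = 1 over 8 shares), where the smallest p that 3 against 3 libraries allow is 0.1. *Cox7a2l* made up 60.4% ± 6.12 of *Cox7a* UMIs in WT and 60.9% ± 4.63 in KO (exact permutation p = 0.9). The remainder was nearly all *Cox7a2*, which had 168, 205, and 189 CPM in WT and 188, 272, and 207 CPM in KO, while the muscle form *Cox7a1* made up 0.258% in WT and 0.153% in KO (exact permutation p = 0.2). Such shares count UMIs grouped by symbol and do not measure the forms present in complex IV.

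The c subunit of the ATP synthase rotor is encoded by 3 genes that give the same mature protein. *Atp5g1* had 235, 329, and 270.1 CPM in WT and 270.2, 410.4, and 299 CPM in KO. *Atp5g2* had 187, 213, and 208 CPM in WT and 211, 291, and 229 CPM in KO, and *Atp5g3* had 144, 177, and 150.1 CPM in WT and 155, 201, and 156 CPM in KO. Each overlapped between genotypes, with library 2 the highest in both. *Atp5g1* held 43.4% ± 2.12 of the *Atp5g* UMIs in WT and 43.9% ± 1.53 in KO, *Atp5g2* 31.9% ± 2.0 and 33.0% ± 0.633, and *Atp5g3* 24.7% ± 0.773 and 23.1% ± 1.10. Of the 8 shares compared, the lowest exact permutation p was 0.2, for *Cox7a1* and *Atp5g3*.

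Other genes of the pathway, none of which was called in β cell–like cells, had these values. Of 38 tested nuclear genes of complex I, 35 were above 0 with a median log2 fold change of 0.20 and 4 had an unadjusted p under 0.05. Of 30 tested assembly factors of complexes II to V, 19 were above 0 with a median of 0.044. The mitochondrially encoded subunits of complexes III to V had 5 of 6 genes above 0 and a median of 0.12. *Cycs*, cytochrome c itself, had a log2 fold change of 0.12.

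In the other cell types, which are not known to use the *Ins1* promoter, no member was called between KO and WT by edgeR or DESeq2, and no gene at all was called by edgeR in any of the 5 types (0%). An unadjusted edgeR p under 0.05 was found for 2 members in δ (3.75% of all genes), 2 in endothelial (3.55%), 1 in macrophage (4.23%), and none in α (3.36%) or stellate cell–like cells (1.73%). With the pair as a block no member was called either, against 0.0678% of all genes in α, 0.0961% in δ, 0.054% in endothelial, 0.191% in macrophage, and 0% in stellate cell–like cells. Of the 41 members tested, 39 had a log2 fold change above 0 in endothelial cell–like cells (median 0.14), 35 of 41 in macrophages (0.094), 30 of 42 in stellate (0.062), 26 of 41 in α (0.023), and 26 of 41 in δ cell–like cells (0.032). Without KO library 2, the numbers above 0 were 25, 21, 16, 16, and 19. Libraries did not overlap between genotypes for *Sdhc* and *Atp5j* (higher in KO) and *Cox5a* and *Uqcr10* (lower) in δ cell–like cells, against 9.15% of all genes. In endothelial cell–like cells this held for *Cyc1* and *Atp5j* (9.07% of all genes), in macrophages for *Uqcrc1* (9.65%), and for no member in α (9.24%) or stellate cell–like cells (6.38%).

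With WT library 1 left out, 1 member was called, *Atp5k* in δ cell–like cells, at a log2 fold change of −0.66 (edgeR FDR 0.0366), among 6 genes called in that fit. The KO effect in each type was also set against that in β cell–like cells in 1 model (limma-voom, library as a random block). Unlike the comparison above, this model kept all KO β cell–like cells, including those with a *Ywhaz* UMI. On simulated data, it recovered 51% of genes whose KO effect was set 2-fold apart between α and β cell–like cells. No member was called for a difference of the effect in any type, with the lowest FDR at 0.999, and the share of all 11314 genes called was 0.00884% in each type.

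Differences between cell types reached larger sizes than those between genotypes, the largest fall from β cell–like cells being that of *Cox6a2*. Types were compared over all 6 libraries with each library as a block, all KO cells kept, and TMM factors computed across types, so CPM here are on another scale than above. Here a call needed more than a 2-fold change besides an FDR under 0.05. Of 43 members tested, 1 was called between α and β cell–like cells, against 15% of all genes (6.62% higher and 8.34% lower in α), and 2 between δ and β cell–like cells, against 14.8% (8.44% higher and 6.31% lower). In endothelial cell–like cells, 2 were called higher (20.8% of all genes) and 3 lower (26.1%). Macrophages had 7 called higher (18.8%) and 2 lower (20.8%), and stellate cell–like cells 2 higher (21.6%) and 2 lower (19.8%). In either direction, the shares of all genes in these 3 types were 46.9%, 39.5%, and 41.4%. *Cox6a2* and *Cox4i2* passed the filter on low counts through a single type. *Cox6a2* was detected in 42.3% of β cell–like cells and at most 9.49% of cells elsewhere, and *Cox4i2* in 18.2% of stellate cell–like cells and at most 0.712% elsewhere, so their differences are a description. Over the other 41 members, 0 were called in α and 1 in δ, and the counts higher and lower were 1 and 2 in endothelial, 6 and 1 in macrophage, and 1 and 1 in stellate cell–like cells.

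*Cox6a2* was called lower than in β cell–like cells in all 5 types, a description since β cell–like cells alone brought it past the filter. In β cell–like cells it had 39.0, 57.7, and 53.6 CPM in WT and 46.2, 46.0, and 66.1 CPM in KO. In α cell–like cells it had 0.888, 4.96, and 1.63 CPM in WT and 3.57, 4.02, and 4.71 CPM in KO. Every α value lay below every β value, and the mean was 15.6 times lower (log2 difference −3.94, SE 0.242). In δ cell–like cells the 6 libraries lay between 0.472 and 3.62 CPM, which was 25.2 times lower by the means (log2 difference −4.58, SE 0.284). The limit on other hormones kept 449 of the 1054 cells of the δ cluster and left out 605. Without TMM, *Cox6a2* had a mean of 11.4 CPM in the whole cluster, in 12.0% of its cells, and 2.27 CPM in the cells kept. The part of this limit in the difference was not tested. Endothelial cell–like cells had 1.63 to 7.10 CPM (log2 difference −3.75), and stellate cell–like cells 4.81 to 10.9 CPM (−2.69). Macrophages ranged more widely, from 1.06 CPM in WT library 1 to 28.9 CPM in KO library 2 (−1.81), still below the lowest β library.

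The *Cox6a2* signal outside β cells was set against RNA from β cells that reaches other droplets. The limit on other hormones left out 203 of the 836 cells of the α cluster. That limit also bounded *Ins2* in the α and δ cell–like cells kept. *Ins2* in α cell–like cells, at a median of 5.14% of its share in β cell–like cells, was taken as the amount of β cell RNA there. Scaled by that share in each library, β cell RNA alone would give a mean of 2.30 CPM of *Cox6a2* in α cell–like cells (CPM without TMM), where 3.27 CPM were measured. The values were 2.19 and 2.27 CPM in δ, 4.31 and 4.27 CPM in endothelial, 7.07 and 8.32 CPM in stellate, and 7.77 and 11.7 CPM in macrophage cell–like cells. This estimate was 66.3% to 101% of the measured *Cox6a2* level over the 5 types, 8.52% to 22.7% of that of *Uqcrq*, and 5.62% to 38.6% of that of *Cox7a2l*, and the part of such RNA in the differences was not tested. In cells left out of the comparison of types, the estimate for *Cox6a2* was 160% of the measured level in T cell–like cells. It was 74.2% in B cell–like cells and 57.7% in cells of a cluster led by *Ppy*. A *Cox6a2* UMI was found in 42.3% of all β, 6.0% of α, and 3.79% of δ cell–like cells, whose median depths in single libraries lay between 22508 and 39542 UMIs in β, 12437 and 24079 in α, and 11525 and 21362 in δ cell–like cells.

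The partner *Cox6a1* did not follow this pattern. It had means of 184 ± 16.5 CPM in β, 199 ± 25.8 in α, 142 ± 6.13 in δ, 212 ± 13.6 in endothelial, 229 ± 18.5 in macrophage, and 169 ± 41.2 in stellate cell–like cells (SD, n = 6), and was called in none of them. As a share of *Cox6a* UMIs, *Cox6a2* made up 18.6% to 26.3% in β cell–like cells of the 6 libraries. It made up 0.543% to 2.19% in α, 0.357% to 2.54% in δ, 0.781% to 3.12% in endothelial, 2.48% to 6.82% in stellate, and 0.435% to 10.6% in macrophage cell–like cells. The β range overlapped none of the other 5.

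**Figure D3:**
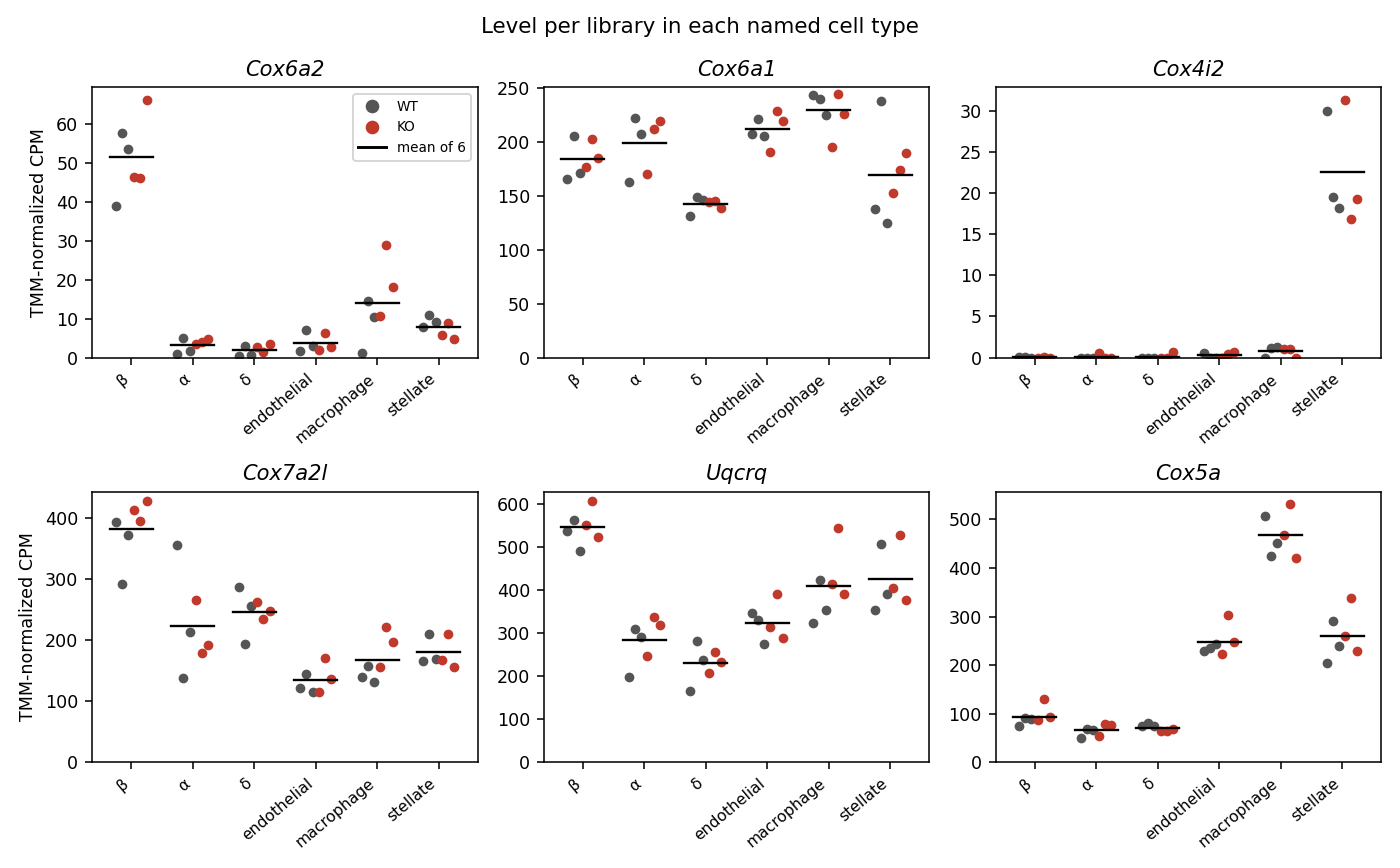
TMM-normalized CPM across types (linear axis) of *Cox6a2*, *Cox6a1*, *Cox4i2*, *Cox7a2l*, *Uqcrq*, and *Cox5a*, 1 point per library and cell type, with WT and KO marked apart. *Cox6a2* lies at 39.0 to 66.1 CPM in β cell–like cells and at or below 28.9 CPM elsewhere, *Cox4i2* lies at 16.8 to 31.3 CPM in stellate cell–like cells, and *Cox6a1* has means from 142 to 229 CPM in the 6 types.

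*Cox4i2*, the form of subunit 4 known from lung and vessel walls and for its role in oxygen sensing, was found mainly outside the endocrine cells. It lies at chr2:152754173-152765037 on the plus strand. Stellate cell–like cells had 30, 19.5, and 18.2 CPM in WT and 31.3, 16.8, and 19.2 CPM in KO. Only 3 UMIs among 183742563 were found in β cell–like cells, and the ratio of stellate to β cell–like cells was 1348 (exact conditional 95% interval 449 to 6641, counting error only). Macrophages held 6 and endothelial cell–like cells 3 UMIs, so the fitted differences there depend on the prior count.

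Of all 395 *Cox4i2* UMIs in kept cells, 234 came from an unnamed cluster of 281 cells with *Rgs5*, *Pdgfrb*, and *Cspg4* among its leading genes and 106 from stellate cell–like cells. These 605 cells were 2.38% of kept cells and held 86.1% of the *Cox4i2* UMIs. The unnamed cluster had 39.5 ± 10.3 CPM (SD over 6 libraries, without TMM), and 44.8% of its cells had a *Cox4i2* UMI, against 18.2% of stellate and 0.0534% of β cell–like cells. In stellate cell–like cells, *Cox4i2* made up 2.18% to 6.53% of *Cox4i* UMIs. The rest was *Cox4i1*, so the widely used form was the more abundant there as well.

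*Cox7a2l* was called lower than in β cell–like cells in 3 types. β cell–like cells had 394, 292, and 371 CPM in WT and 413, 395, and 427 CPM in KO. Endothelial cell–like cells had 115 to 170.3 CPM (log2 difference −1.50, SE 0.146), macrophages 132 to 222 CPM (−1.17), and stellate cell–like cells 156 to 210.2 CPM (−1.05), and none of these ranges reached the β range. α cell–like cells had 138 to 355 CPM and were not called at −0.79. The share of *Cox7a2l* in *Cox7a* UMIs was 53.7% to 65.7% in β, 28.4% to 55.1% in α, 39.0% to 52.6% in δ, 30.4% to 35.2% in endothelial, 25.1% to 34.2% in macrophage, and 33.2% to 40.4% in stellate cell–like cells. B and T cell–like cells, which were too few in some libraries for the test, had shares of 48.8% to 67.2% and 57.6% to 75.0%.

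*Uqcrq* had 492 to 607 CPM in β cell–like cells and 166 to 282 CPM in δ cell–like cells, without overlap, and was called at a log2 difference of −1.26 (SE 0.0940). In α cell–like cells it had 198 to 337 CPM, also below every β library, but its log2 difference of −0.95 (SE 0.0923) fell short of 2-fold. *Atp5e* and *Atp5l* lay near that limit in the opposite direction, the latter at a log2 difference of 0.95 (SE 0.0933). *Atp5e* had 924 to 1204 CPM in α and 458 to 645 CPM in β cell–like cells, and its log2 difference was 0.96 (SE 0.0852). In endothelial cell–like cells, *Atp5e* was lower than in β cell–like cells, at 179.8 to 314 CPM (log2 difference −1.23, SE 0.0873, called).

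*Cox5a*, a matrix-side subunit of complex IV, had 75.0 to 129 CPM in β, 50.6 to 79.5 CPM in α, and 63.7 to 79.8 CPM in δ cell–like cells. It was higher in each of the 3 nonendocrine types. Endothelial cell–like cells had 224 to 304 CPM (log2 difference 1.40, SE 0.0898), stellate cell–like cells 204 to 338 CPM (1.48, SE 0.0944), and macrophages 419.6 to 533 CPM (2.33, SE 0.0917), with no overlap with β cell–like cells. Macrophages also had the largest number of members called higher, which besides *Cox5a* and *Cox4i2* were *Sdhb* (134 to 206 CPM against 55.6 to 76.9 CPM in β cell–like cells, log2 difference 1.38), *Cox5b* (1.13), *Cox4i1* (1.07), *Atp5mpl* (1.07), and *Uqcrb* (1.02). The last 4 lay near the 2-fold limit, and fell short of it, at 0.84 to 0.95, without a filter on low counts. *Uqcrb* also fell short without WT library 1, 2, or 3 or KO library 1 or 3 (0.90 to 1.00), *Cox4i1* without WT library 3 or KO library 1 (0.99 each), and *Atp5mpl* without WT library 1 (0.93) or 3 (0.99).

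The median log2 difference from β cell–like cells over the 43 members was 0.56 in macrophage, 0.42 in stellate, 0.30 in α, 0.01 in δ, and −0.08 in endothelial cell–like cells, while the median over all genes lay between −0.05 and −0.01. In macrophages, all 17 complex V genes were above their β level at an FDR under 0.05, against 36.2% of all genes, with a median of 0.56. In endothelial cell–like cells, 12 of the 17 were below it, 8 of them at an FDR under 0.05, against 41.8% of all genes, with a median of −0.16.

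**Figure D4:**
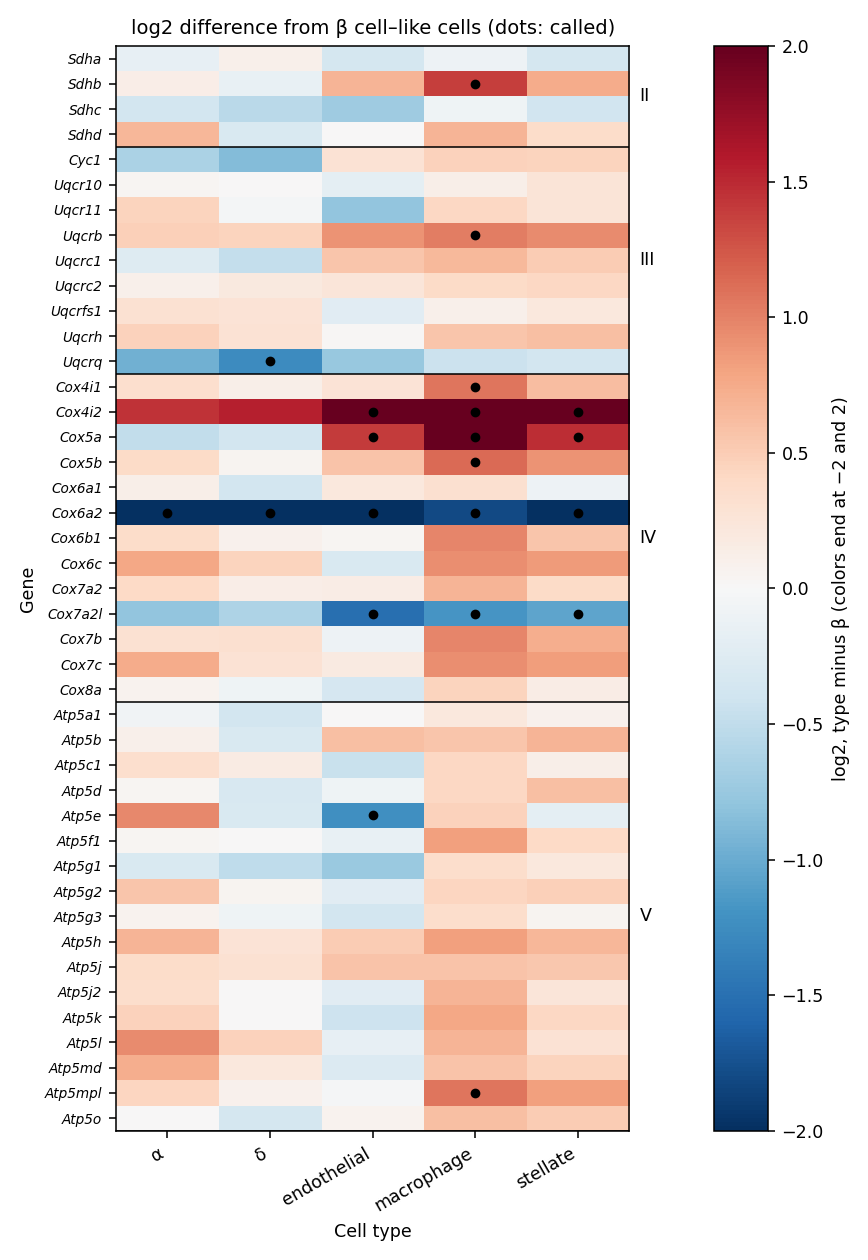
Log2 difference of each cell type from β cell–like cells for the 43 members tested, ordered by complex, with colors clipped at −2 and 2 and dots where a difference was called. *Cox6a2* is dotted in all 5 columns, and of the members of complex II only *Sdhb* in macrophages carries a dot.

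The *Atp5g* family was divided differently between endocrine types. *Atp5g1* made up 41.6% to 45.7% of *Atp5g* UMIs in β cell–like cells, above the 26.2% to 37.5% in α and the 32.8% to 38.6% in δ cell–like cells, and *Atp5g2* made up 29.6% to 34.0%, below the 40.5% to 50.0% in α and the 35.3% to 41.9% in δ cell–like cells. *Atp5g3* lay between 21.6% and 26.4% in these α and δ cell–like cells and between 22.2% and 25.4% in β cell–like cells.

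The remaining paralogs of complex IV were rare. *Cox7a1* had 192 UMIs in β cell–like cells, in 3.22% of them. Its level in δ cell–like cells (39 UMIs) was 4.56 times that in β cell–like cells (exact conditional 95% interval 3.15 to 6.47), and in macrophages (37 UMIs) 4.01 times (2.74 to 5.73). *Cox6b2*, known from testis, had 33 UMIs in β cell–like cells and was 47.4 times as high in stellate cell–like cells (41 UMIs, 29.2 to 77.4) and 12.0 times in macrophages (19 UMIs, 6.44 to 21.7). These intervals cover counting error only. *Cox7b2* had 47 UMIs in all kept cells, 29 of them in β cell–like cells. *Cox8b* had 3 and *Cox8c* 2 UMIs among the 364173616 of all kept cells, at which depth no difference between types could be seen, and *Cox8a* supplied nearly all UMIs of that family.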

How the data were processed

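Islet cells of 3 WT mice and of 3 KO mice were profiled by 3′ single-cell RNA-Seq, with 1 library per mouse as the replicate. The authors deposited the count of UMIs per gene and barcode, made with Cell Ranger (version 6.0.2 and the build mm10 per the submitters' processing notes), as whole numbers without normalization. Steps from these counts on were run in Python 3.11.15 (scanpy 1.11.5) and R 4.3.3 (DESeq2 1.42.0, edgeR 4.0.16, limma 3.58.1). Barcodes with fewer than 500 genes (3485) or more than 10% mitochondrial UMIs (12956) were left out, as were 1584 doublets, taken as the top Scrublet scores at 0.8% per 1000 barcodes. Cells were clustered without integration (2000 variable genes, 30 components, 15 neighbors, Leiden resolution 1), with the members, *Ywhaz*, *Ins1*, *Ins2*, and mitochondrial and ribosomal genes left out of the variable genes. A cluster took a cell type's name from at least 3 fixed markers and a median of at least 3500 UMIs, and the names may differ from those of the study. For α, β, and δ clusters, the dominant hormone gave the name. At least 3 of its markers also had to be above other deep clusters that were named or led by another hormone. Against all other cells, the δ cluster had 4 α and 4 δ markers above. Cells in the β class had insulin UMIs at least 10 times those of *Gcg*, *Sst*, and *Ppy*, and cells of α and δ classes had their own hormone at least 2 times above the others, which left out 1158 cells of mixed hormones.

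UMIs were summed per library and type, and edgeR's quasi-likelihood test was applied to the sums (TMM, Benjamini-Hochberg adjustment over all genes tested). Genes had to be detected in over 15% of the cells of either genotype. Types were compared where each library had at least 20 cells of both. Shares were compared by 2-sided exact permutation tests over libraries. All scripts for these fits were tested on simulated data, where the comparison of genotypes recovered 6% of genes changed 1.25-fold. The simulated comparison of types used a lower fold limit than the report. Depth was 74083947 to 98294915 UMIs per library, intervals on UMI ratios are exact and cover counting error only, and none of the 6 pairs within a genotype were copies (chi-square per degree of freedom 8.73 to 55.5). Whether the mice were littermates of each other across numbers was not given, but same-numbered WT and KO libraries deviated together (correlations 0.581, 0.521, and 0.195), so the pair was also fitted as a block.

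Members and gene lists were chosen with earlier results of these data known. Values per library are given for members that a comparison called or whose genotypes did not overlap, for the most and least abundant of each complex, for tissue paralogs and their partners, and for the members with the 3 largest folds each way between types. Some further members named beside them were chosen after their values were seen. Coordinates are from GENCODE vM21 (GRCm38), where 32158 of the 32285 gene identifiers were found. GENCODE holds 6 pseudogenes named after members, none of them among the counted genes, so reads of such copies could not be counted apart.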

Additional observations from a re-analysis of the deposited data

How the results depend on the processing

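The count of members called between genotypes in β cell–like cells was 0 under every alternative run: the replicate block, DESeq2, RLE size factors, no filter on low counts, all KO cells kept, up to 20% mitochondrial UMIs, no doublet calls, Leiden resolution 2, β cells taken by hormone share, insulin left out before normalization, each library left out, and 3 alternatives chosen after seeing the data (cells of 20000 to 40000 UMIs, the insulin-rich cluster added, and both libraries numbered 2 left out). Leaving out a library at a time gave 26 to 41 members above 0. In the other types, 1 member was called without WT replicate 1, and 0 to 1 over all libraries left out in turn. The count called between α and β cell–like cells was 1 of 43 in the report, where 15% of all genes were called. It was 2 with limma-voom, with RLE size factors, without a filter on low counts, and with up to 20% mitochondrial UMIs. It was 3 in WT libraries alone and 3 without both libraries numbered 2. With a library left out it was 1 to 2 (2 without WT replicate 3 or KO replicate 3, by *Uqcrq*, and without KO replicate 2, by *Atp5l*). In WT libraries alone the added members were *Atp5e* (log2 difference 1.03) and *Uqcrq* (−1.02), which lay just short of 2-fold in the report. Between δ and β cell–like cells, the count was 4 without a filter on low counts, where *Cox7a1* (1.43) and *Cyc1* (−1.07) were added. It was 2 of 43 in the report, where 14.8% of all genes were called. The shares of all genes called in the alternative fits of types are not given here. *Cox4i2* in endothelial cell–like cells lost its call in WT libraries alone and without KO replicate 3 (log2 difference 2.19, FDR 0.0655), and *Cox7a2l* in stellate cell–like cells in WT libraries alone. *Cox6a2* stayed called in all 5 types under each alternative run, a description since it passed the filter through β cell–like cells alone. The replicate block changed no call of a member. No called value changed sign. The causes of these shifts were not tested. Levels near a single UMI, such as those of *Cox8b* and *Cox8c*, are limited by depth.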

Other observations

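A cluster of 786 cells rich in insulin transcripts (a median of 40.8% to 73.0% of UMIs over the 6 libraries) was left unnamed, with *Dnah12*, *Hspa5*, and *Cox6a2* among its leading genes. Since *Cox6a2* was not used to form the clusters but belongs to the cells that were clustered, its values are given as a description, with no test. It had 75.5, 123, and 56.2 CPM (without TMM) in WT and 119, 43.6, and 72.8 CPM in KO, against 42.2 ± 8.40 CPM in β cell–like cells (SD, n = 6). All 6 libraries of this cluster were above the β cell–like cells of the same library. With insulin UMIs left out of the total, the mean log2 difference from β cell–like cells was 1.69. On that scale, 22 of the 42 members with at least 1000 UMIs in β cell–like cells were higher in all 6 libraries and 5 were lower in all 6. Their median log2 difference was 0.19, and all genes were not compared in this way. Among them, *Uqcrh* was higher by 0.73 on the log2 scale, whereas *Cyc1* lay at −1.11 and *Sdhc* at −0.72. The cells of this cluster had a median of 3759 UMIs in WT library 2 and 47633 in WT library 1. The median number of genes detected per cell was 2506 in this cluster and 5388 and 5202 in the clusters of β cell–like cells, and the part of this difference in the values was not tested.

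The 2 clusters that make up the β cell–like class differed in *Cox6a2* as well, with 28.0 ± 7.40 CPM in the smaller cluster, led by *Aqp4* and *Pigr*, and 45.3 ± 8.85 CPM in the larger, led by *Igf1r* and *Nupr1* (SD, n = 6). The share of cells with a *Cox6a2* UMI was 34.4% and 44.7%.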
